A study of Mus musculus with 24 samples.

Results

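Cardiomyocyte genes were followed through wild-type (WT) and Cmtr2 knockout (KO) mouse embryos. The set holds 34 genes of the 54532 gene IDs in each expression table. They were chosen by symbol for their place in heart muscle: 20 encode sarcomere proteins, 2 natriuretic peptides, 7 transcription factors of the heart and 5 proteins that handle calcium. Every symbol matched 1 Ensembl ID.

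RNA was sequenced from embryos at embryonic day 8.5 (E8.5) and E9.5 and from E9.5 yolk sacs. Each of the 3 sets had 4 KO and 4 WT libraries. The knockout is constitutive, so every tissue lacks the gene. KO embryos looked like their littermates at E8.5 and were smaller at E9.5, per the series' own text. Litters numbered 2 at E8.5 and 4 at E9.5. The labels name neither a strain, the removed part of the gene nor the litter of a library. No drug or second allele is named for any group. Since these are embryos and not isolated hearts, fewer cardiomyocytes and less RNA per cardiomyocyte cannot be told apart in any level below. The titles say only Embryo, so they do not tell whether each library held a whole embryo.

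Heart muscle cells contract through sarcomeres, in which myosin heavy and light chains pull on thin filaments of actin and tropomyosin, and calcium bound to the troponin complex switches the pull on. In the mouse embryo the heart tube forms and begins to beat around the earlier of the stages studied, and then loops and grows chambers. Transcription factors such as Nkx2-5, Hand2, Tbx5, Tbx20, Mef2c and Isl1 act upstream of these genes, and several of them also work in limb, pharyngeal or neural tissue.

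Cmtr2 encodes an RNA methyltransferase that acts on the mRNA cap. At E8.5 its scaled FPKM was 6.51, 6.46, 6.19 and 5.64 in WT1 to WT4 and 0.782, 0.868, 0.694 and 0.492 in KO1 to KO4. At E9.5 it was 3.82, 3.97, 3.61 and 2.65 in WT1 to WT4 and 0.591, 0.418, 0.692 and 0.458 in KO1 to KO4. The KO libraries were lower than every WT library at both stages (log2 fold change -2.48 and -1.94, limma adjusted p = 0.000285 and 0.00146), which follows the sample titles. The genotype tag is the opposite of the title in 24 of 24 libraries, and titles were used throughout. FPKM is a level per length of gene and per sequenced fragment. Libraries held 15555422 to 23379198 fragments.

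At E9.5, WT1 and WT3 stood apart from the other 6 libraries. The summed level of the 34 cardiomyocyte genes was 153 and 132 in WT1 and WT3, against 346 to 1204 in the others. Summed over 8 tailbud markers, levels were 23.2 and 22.0 in these libraries and 34.7 to 101 in the rest, where KO2 was the lowest. Visceral endoderm markers summed to 0.787 and 10.9 against 31.7 to 437. Forebrain markers went the other way, with 56.8 and 33.4 against 9.72 to 22.4. Endothelial markers summed to 42.5 and 36.4 against 37.5 to 60.1. Why WT1 and WT3 differ was not tested, and the E9.5 fold changes and ratios of the members are compared with and without them.

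**Figure D1:**
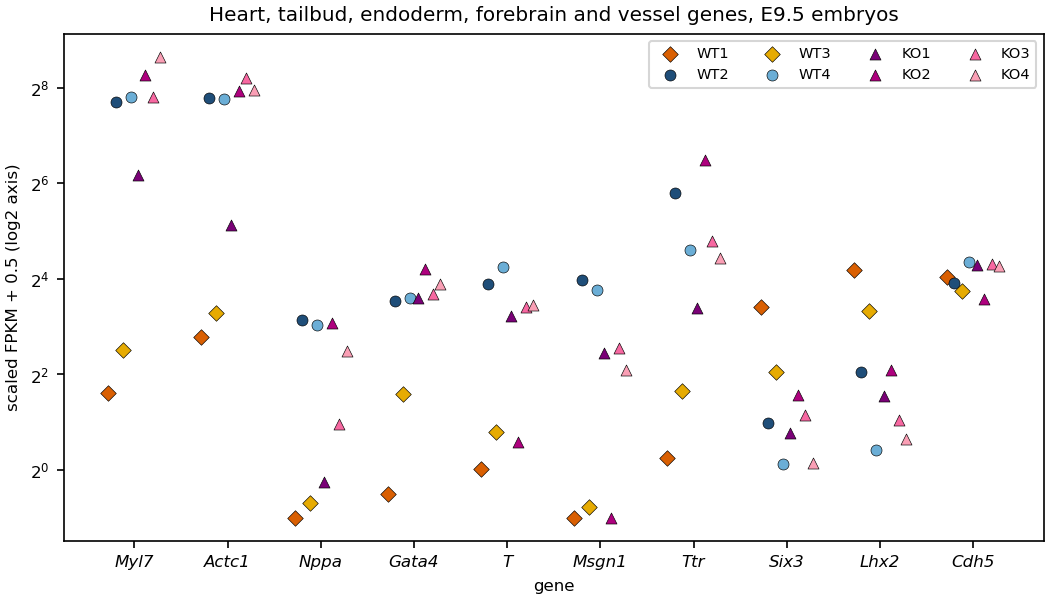
Scaled FPKM plus 0.5 (log2 axis) of 10 genes in each E9.5 embryo library; circles are WT2 and WT4, diamonds WT1 and WT3, triangles the 4 KO libraries. WT1 and WT3 are the lowest libraries for the heart genes Myl7, Actc1, Nppa and Gata4 and for the endoderm gene Ttr, are low in the tailbud genes T and Msgn1 together with KO2, and are the highest for the forebrain genes Six3 and Lhx2.

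Yolk sac, an extraembryonic tissue outside the heart, gives the level to set beside the embryo values. All 8 yolk sac libraries lay below embryo WT2 and WT4 in 31 of the 34 genes, the exceptions being Tbx20, Atp2a2 and Casq2, in tables that were scaled separately. Myl2 and Pln were at 0 in all 8 yolk sac libraries. Myl7 ran from 0.163 to 1.21 there. Embryo WT1 and WT3 were left out of that count of genes. They were above every yolk sac library for Myl7, at 2.58 and 5.17. For Tnni1 (1.64 and 2.27) and Tnnc1 (1.03 and 1.66) they were below every yolk sac library, which ran from 2.55 to 5.03 and from 3.12 to 12.7. Of the 34 genes, 8 averaged an FPKM of at least 1 in yolk sac, led by Atp2a2 and Tpm1, which many cell types use. Their yolk sac levels were 41.7 to 69.9 and 34.8 to 46.2.

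The start regions of 4 members are printed so that their sequence can be read beside the levels. Most sarcomere genes moved together from library to library. The natriuretic peptide genes followed them less closely, with Nppb highest in KO4 at E8.5 and Nppa at 1.44 in KO3 at E9.5. At E9.5 WT1 and WT3 were still the lowest libraries for Nppa and Nppb. Sequences are from RefSeq (GRCm38.p6), 250 bases before to 50 bases after the annotated start, on the strand of the gene. Capitals mark matches on either strand to the CArG box, the site of serum response factor, and to the TATA box, searched as TATAAA. They also mark AAGTG, a site that Nkx2-5 can bind. AGATAA, a site of GATA factors, would be marked too, but these regions lack that exact string. Other GATA sequences, such as the tgataa in the Myl7 and Nppa regions, were not searched.
Myl7, chr11:5898733-5899032, minus strand: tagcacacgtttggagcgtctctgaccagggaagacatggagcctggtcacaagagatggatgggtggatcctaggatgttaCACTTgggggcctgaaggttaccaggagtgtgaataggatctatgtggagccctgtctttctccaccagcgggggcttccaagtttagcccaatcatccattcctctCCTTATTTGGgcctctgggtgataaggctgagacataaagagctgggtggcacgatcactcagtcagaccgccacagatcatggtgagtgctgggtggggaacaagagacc
Actc1, chr2:114052826-114053125, minus strand: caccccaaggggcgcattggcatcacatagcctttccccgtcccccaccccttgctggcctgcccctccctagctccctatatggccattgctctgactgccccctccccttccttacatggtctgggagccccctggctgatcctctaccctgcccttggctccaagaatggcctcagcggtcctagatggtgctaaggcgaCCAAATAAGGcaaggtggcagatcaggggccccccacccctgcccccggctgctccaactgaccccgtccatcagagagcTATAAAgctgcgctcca
Myl3, chr9:110763428-110763727, plus strand: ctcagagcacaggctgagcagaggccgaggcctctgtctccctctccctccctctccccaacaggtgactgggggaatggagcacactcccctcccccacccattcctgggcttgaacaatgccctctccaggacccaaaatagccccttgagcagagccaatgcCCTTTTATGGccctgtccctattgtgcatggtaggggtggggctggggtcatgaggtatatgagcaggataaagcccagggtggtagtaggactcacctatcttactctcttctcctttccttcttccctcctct
Nppa, chr4:148000472-148000771, plus strand: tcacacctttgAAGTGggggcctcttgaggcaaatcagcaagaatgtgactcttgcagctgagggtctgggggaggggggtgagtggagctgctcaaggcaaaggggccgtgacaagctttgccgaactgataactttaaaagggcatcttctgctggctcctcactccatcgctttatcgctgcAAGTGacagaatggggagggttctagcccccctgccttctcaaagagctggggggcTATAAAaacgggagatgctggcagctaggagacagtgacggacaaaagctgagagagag

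The CArG box begins 61 bases before the annotated start in Myl7, 47 in Actc1 and 85 in Myl3. TATAAA begins at base 34 after the annotated start in Actc1 and 9 bases before it in Nppa. Of the 34 members 32 matched a RefSeq start region, in 43 regions in all. The CArG box was found in 7 of these 43 (16.3%) and in 1.63% of all 32851 regions, both strands read. By gene, it was in Myl7, Myl3, Actc1, Myom1, Nebl and Ldb3, or 6 of 32, against 1.81% of 27025 genes. The sarcomere genes printed above all belong to this minority. Tnnt2, Tnnc1 and Myh6, which were also lowest in WT1 and WT3 at E9.5, had no match. AGATAA was found in 25.6% of the member regions and 11.2% of all, TATAAA in 18.6% and 13.6%, and AAGTG in 39.5% and 46.4%. The MEF2 site, searched as CTA and TAG 4 bases apart, where matches may overlap those of the CArG box and TATAAA, was found in 11.6% and 3.69%. A match of letters is a description and not a bound site.

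At E8.5 no cardiomyocyte gene was called between KO and WT. Of the 34, 30 reached an FPKM of 1 in 4 or more libraries and were tested, and Ttn, Nppa, Pln and Casq2 were not. Limma called 0 of the 30 at an adjusted p under 0.05, beside 0.957% of all 13058 genes tested. At an unadjusted p under 0.05 there were 2, Irx4 and Nebl, beside 3237 of all 13058 genes. Limma voom on recovered fragments called 0, beside 95 of 13054 genes. The median log2 fold change of the 30, KO minus WT, was -0.14, and that of all genes was 0.01; 13 members were above 0 and 17 below.

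Among the light chains, Myl7, the regulatory light chain of embryonic and atrial muscle, had scaled FPKM of 222, 124, 107 and 61.1 in WT1 to WT4 and 187, 139, 38.6 and 121 in KO1 to KO4. The genotypes overlapped, with WT1 highest and KO3 lowest (log2 fold change -0.14, SE 0.47, adjusted p = 0.871). Myl2, the ventricular regulatory light chain, was at 37.3, 27.3, 6.01 and 2.69 in WT1 to WT4 and 23.7, 13.8, 1.68 and 8.66 in KO1 to KO4. Each genotype spread widely, with WT1 highest and KO3 lowest (log2 fold change -0.41, SE 0.84, adjusted p = 0.786). Myl3 and Myl4, the essential light chains of ventricle and of atrium and embryo, had log2 fold changes of -0.59 and -0.18.

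The heavy chains Myh6 (the fast, alpha form) and Myh7 (the slow, beta form) lie next to each other on chromosome 14 and are near-identical in places, so fragments may be split between them. Myh6 was at 54.2, 17.9, 51.5 and 12.1 in WT1 to WT4 and 71.0, 25.6, 7.56 and 30.8 in KO1 to KO4. Myh7 was at 34.4, 9.87, 23.2 and 5.59 in WT1 to WT4 and 59.0, 20.1, 8.25 and 18.6 in KO1 to KO4. Both were highest in KO1, and both overlapped between genotypes. Their log2 fold changes were -0.12 (SE 0.63) and 0.49 (SE 0.61).

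Of the thin filament genes, Tpm1 (tropomyosin) had the highest level of all 34 members in every E8.5 library, at 446, 449.9, 332 and 282 in WT1 to WT4 and 372, 340.1, 257 and 339 in KO1 to KO4. Actc1 (cardiac actin) was at 316, 126, 137 and 51.7 in WT1 to WT4 and 244, 132, 27.8 and 123 in KO1 to KO4. Actc1 varied more than Tpm1, again with WT1 at the top and KO3 at the bottom. Tnni1, the slow skeletal troponin I that the embryonic heart uses, was at 108, 64.4, 36.6 and 22.0 in WT1 to WT4 and 81.7, 84.9, 28.7 and 81.2 in KO1 to KO4. KO3 was far below the other 3 KO libraries, which were close to one another. Tnni3, the cardiac troponin I, was at 7.76, 11.2, 4.85 and 3.51 in WT1 to WT4 and 8.21, 7.06, 3.54 and 8.90 in KO1 to KO4. Limma's log2 fold changes for the 6 thin filament genes ran from -0.54 (Tnnt2, cardiac troponin T, SE 0.35) to 0.38 (Tnni1, SE 0.47).

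Nebl, or nebulette, a thin filament protein of the Z-disc, had the lowest p of the members at E8.5. Its levels were 11.6, 12.1, 10.7 and 7.94 in WT1 to WT4 and 5.15, 8.19, 3.05 and 3.87 in KO1 to KO4. WT4 lay below KO2, and the other WT libraries were above every KO library (log2 fold change -1.06, SE 0.27, adjusted p = 0.0721). The adjusted p was 0.0549 to 0.186 with 1 library left out in turn, with 0 of 8 such fits called. The other 6 scaffold genes tested (Actn2, Mybpc3, Myom1, Ldb3, Csrp3 and Smpx) had log2 fold changes from -0.73 to 0.27. Ttn, the giant spring protein titin, was at 0.265 to 0.464 in all 8 libraries and was below the filter.

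Nppa, the atrial natriuretic peptide that marks working chamber muscle, was at 2.33, 1.35, 0.0631 and 0 in WT1 to WT4 and 0.558, 0.138, 0.0607 and 0 in KO1 to KO4. It was above 1 in WT1 and WT2 alone, and at 0 in WT4 and KO4, where no fragment was recovered. Nppb, its B-type relative, was at 2.70, 7.21, 0.699 and 2.08 in WT1 to WT4 and 1.10, 5.18, 1.61 and 14.8 in KO1 to KO4. KO4 held the highest and WT3 the lowest value (log2 fold change 0.48, SE 0.70, adjusted p = 0.689).

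Among the transcription factors, Hand2, which acts in the right ventricle, limb and branchial arches, was at 14.9, 15.0, 11.7 and 11.5 in WT1 to WT4 and 22.6, 19.1, 10.9 and 24.6 in KO1 to KO4. KO1, KO2 and KO4 lay above every WT library, and KO3 below them (log2 fold change 0.47, SE 0.24, adjusted p = 0.247). Irx4, which marks ventricular muscle, was at 1.99, 2.23, 1.56 and 3.31 in WT1 to WT4 and 3.21, 4.86, 5.91 and 4.39 in KO1 to KO4. Only WT4 was above a KO library, KO1 (log2 fold change 0.89, SE 0.25, adjusted p = 0.0870). Mef2c was at 6.32, 6.24, 7.49 and 7.26 in WT1 to WT4 and 5.30, 6.20, 5.28 and 3.86 in KO1 to KO4. It was the 1 member of 30 whose KO libraries all lay below every WT library, beside 15.7% of all genes without overlap (log2 fold change -0.39, SE 0.19, adjusted p = 0.235). Tbx20, a repressor and activator in cardiac progenitors, was at 6.27, 6.26, 16.7 and 17.9 in WT1 to WT4 and 8.76, 9.11, 11.1 and 6.98 in KO1 to KO4, and WT3 and WT4 were its highest libraries. Nkx2-5, Tbx5 and Isl1 had log2 fold changes of 0.32, -0.14 and -0.15.

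Atp2a2, the calcium pump of the sarcoplasmic reticulum, was at 125, 104, 144 and 135 in WT1 to WT4 and 171, 109, 137 and 111 in KO1 to KO4. The libraries differed little, and the log2 fold change was 0.04 (SE 0.17). Slc8a1, the sodium-calcium exchanger needed for a heartbeat in mouse embryos, was at 4.77, 3.52, 3.22 and 1.49 in WT1 to WT4 and 5.01, 2.56, 1.34 and 2.14 in KO1 to KO4. Its groups overlapped throughout (log2 fold change -0.23, SE 0.37, adjusted p = 0.719). Ryr2, the calcium release channel, had a log2 fold change of 0.31. Pln, the inhibitor of the calcium pump, was at 0 in 7 of 8 libraries.

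**Figure D2:**
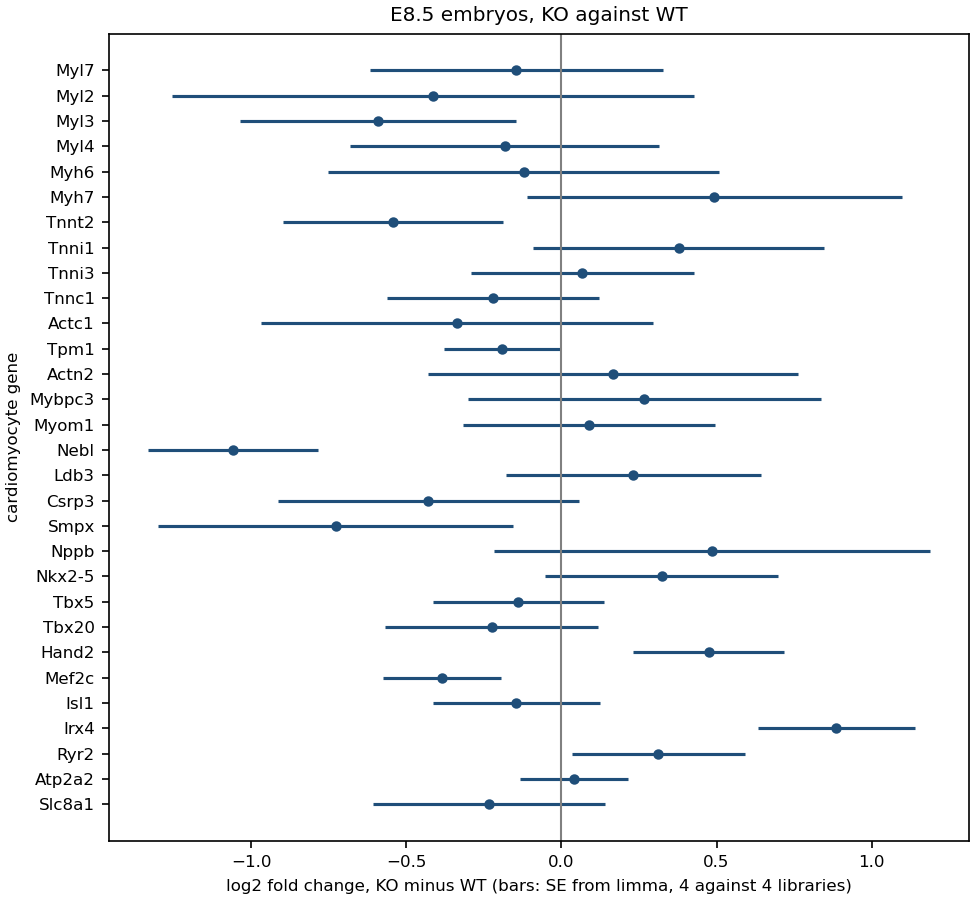
Log2 fold change of the 30 tested cardiomyocyte genes in E8.5 embryos, KO minus WT, with bars of 1 SE from limma over 4 KO and 4 WT libraries. Nebl lies furthest below 0 (-1.06) and Irx4 furthest above (0.89), and neither passed the adjusted threshold.

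The main spread at E8.5 was between libraries of 1 genotype. The mean log2 level of the 19 sarcomere genes tested was 5.06, 4.36, 4.12 and 3.28 in WT1 to WT4 and 4.86, 4.37, 2.80 and 4.09 in KO1 to KO4. WT1 was the highest and KO3 the lowest. KO3 was the lowest of all 8 libraries for 18 of 30 members, against 8.96% of all genes. WT4 was the lowest WT library for 21 of 30, against 26.7% of all genes. Without KO3 the median of the members went from -0.14 to 0.30, and without WT1 to 0.11, with 0 called in each case. In KO3 the smooth muscle list, whose main gene Acta2 is also made by embryonic heart, summed to 44.0 against 58.7 to 172 in the other 7. KO3 was also lowest in the forebrain list (12.1 against 17.5 to 38.5) and in the epicardium list (4.12 against 6.29 to 11.7), while the visceral endoderm list summed to 3871, within the range of the others. Their part in this spread was not tested.

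**Figure D3:**
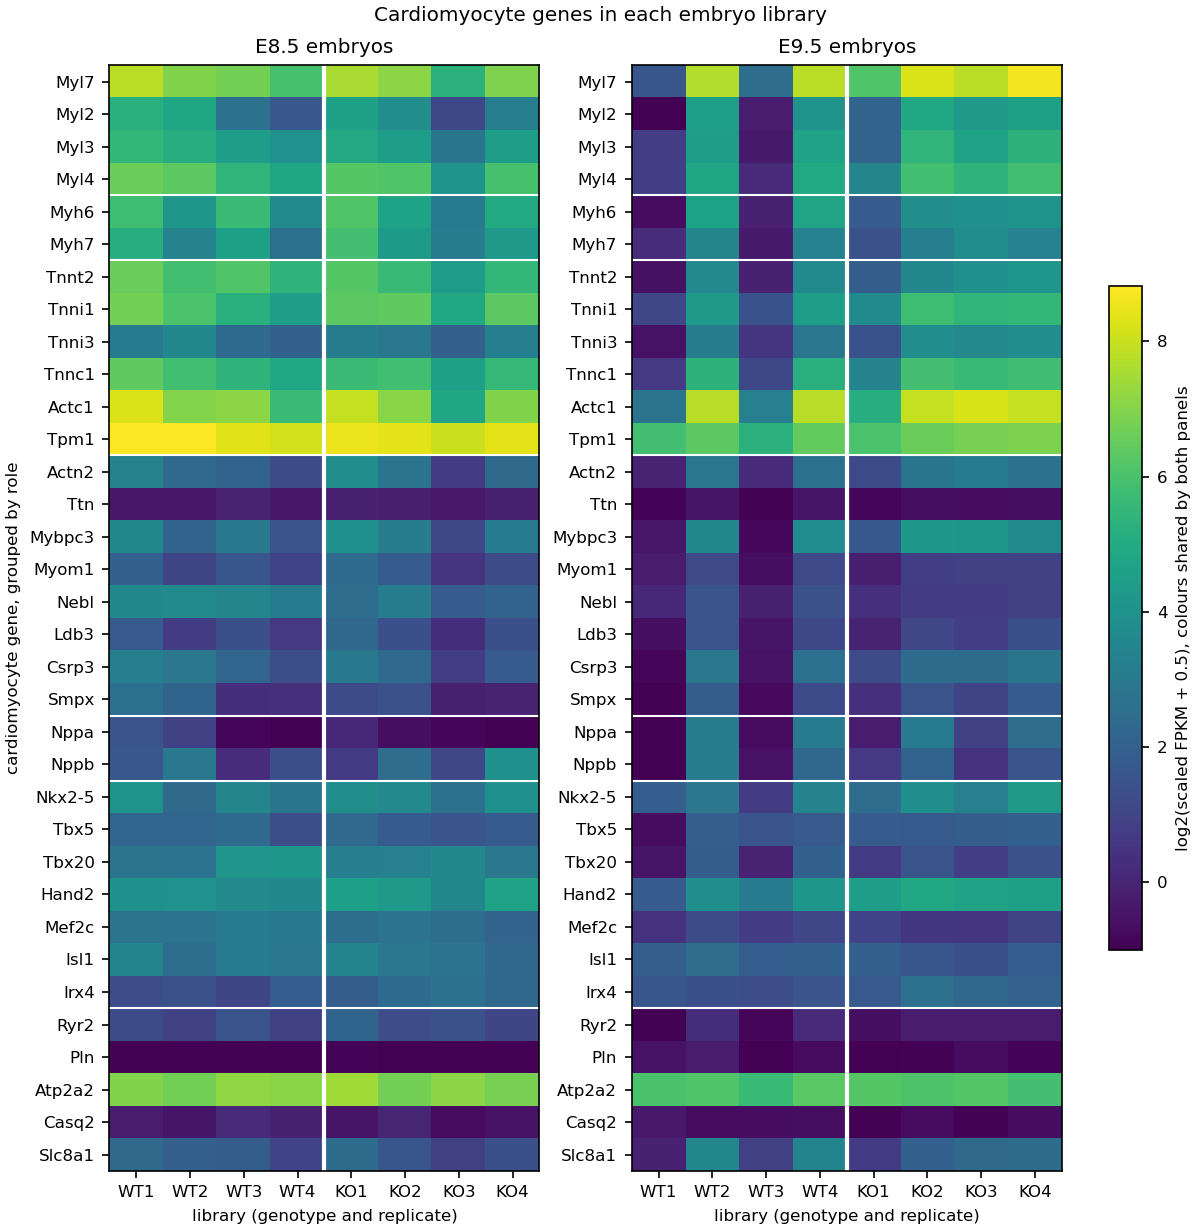
Log2(scaled FPKM + 0.5) of the 34 cardiomyocyte genes (rows, grouped by role) in the 8 E8.5 (left) and 8 E9.5 (right) embryo libraries; a white line separates WT from KO columns. KO3 is the darkest column of most sarcomere rows at E8.5, and WT1 and WT3 at E9.5, followed by KO1; colours are not comparable between panels for a gene, since the tables use different gene lengths.

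At E9.5, 1 of the 30 tested members was called with all libraries: Irx4, which rose in KO (background 13.6% of 12027 genes). At an unadjusted p under 0.05 there were 5, Nkx2-5, Irx4, Tnni1, Hand2 and Myl4, beside 4280 of all 12027 genes. Voom called 3, Irx4, Tnni1 and Hand2, beside 2095 of 12023 genes. Ttn, Ryr2, Pln and Casq2 were below the filter. Over all genes 884 were called higher and 753 lower, and 132 and 3113 after rescaling to TPM, where the median gene was at -0.34 and Irx4 at 0.42 (adjusted p = 0.292). The median log2 fold change of the members was 1.15, that of all genes 0.01, and 26 members lay above 0 and 4 below. Without WT1 and WT3 limma called 0 of the 30, beside 9.39% of all genes. At an unadjusted p under 0.05 there were 7 members, beside 4375 of all 12027 genes. The median of the members was -0.30, and 8 lay above 0 and 22 below. The sign changed for 18 of 30. That fit keeps KO1, whose mean log2 level of the tested sarcomere genes was 2.28, against 4.04 to 4.22 in KO2, KO3 and KO4. In WT2 and WT4 this mean was 3.99 and 3.89. No fit left out WT1, WT3 and KO1 together, and the part of KO1 in these signs was not tested. With WT1, WT3 and KO2 all left out, 0 members were called, beside 0.291% of all genes, and their median was -0.47. At an unadjusted p under 0.05 there were 8 members, beside 4055 of all 12027 genes.

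WT1 and WT3 were the 2 lowest of the 8 libraries in 25 of 30 members, against 5.98% of all genes. The exceptions were Mef2c, Isl1, Irx4, Atp2a2 and Slc8a1. The pair had been singled out for its low Myl7, itself among the 25, so the count is a description. Expressed as the mean of WT1 and WT3 in percent of that of WT2 and WT4, the light chains were at 0.874 to 3.32%, the heavy chains at 1.06 and 4.95% and the natriuretic peptides at 0.739 and 1.54%. The scaffold genes were at 1.34 to 22.1%. Thin filament genes were at 2.47 to 9.43% except Tpm1, at 57.6%. The transcription factors were at 10.4% (Tbx20) to 97.0% (Irx4). Among the calcium genes Slc8a1 was at 8.07% and Atp2a2 at 75.3%.

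Myl7 at E9.5 was at 2.58, 207, 5.17 and 223 in WT1 to WT4 and 71.4, 307, 223 and 401 in KO1 to KO4. WT1 and WT3 lay far below the other libraries, KO1 between, and the remaining 5 within a range of 207 to 401. With all libraries the log2 fold change was 2.82 (SE 1.34, adjusted p = 0.160), and without WT1 and WT3 it was -0.03 (SE 0.58, adjusted p = 0.980). Fragments recovered for Myl7 ran from 27 to 4268, so its low values rest on few fragments but not on none. Myl2 was at 0, 22.9, 0.339 and 15.9 in WT1 to WT4 and 3.80, 29.0, 19.3 and 23.5 in KO1 to KO4. WT2, WT4, KO2, KO3 and KO4 overlapped there, and the log2 fold change was 2.14 with all libraries and -0.32 without the low WT libraries. Myl3 and Myl4 went from 1.99 and 2.44 to -0.16 and 0.26 in these fits, and none of the 4 light chains was called in either.

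Actc1 was at 6.41, 219, 9.23 and 216 in WT1 to WT4 and 34.6, 244, 295 and 246 in KO1 to KO4. KO1 was the only KO library below WT2 and WT4. Its log2 fold change was 1.90 with all libraries and -0.46 (SE 0.76) without WT1 and WT3. Tpm1 was at 58.0, 81.5, 39.0 and 86.8 in WT1 to WT4 and 64.7, 97.0, 112 and 118 in KO1 to KO4. It was the sarcomere gene least low in WT1 and WT3 (log2 fold change 0.59, SE 0.27, adjusted p = 0.150), with 0.19 when these are left out. Tnnt2 and Tnnc1, the cardiac troponins T and C, went from 1.72 and 2.11 to -0.28 and -0.08.

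Tnni1 was at 1.64, 19.6, 2.27 and 22.0 in WT1 to WT4 and 12.5, 53.8, 42.6 and 44.5 in KO1 to KO4. KO2, KO3 and KO4 were above every WT library and KO1 below WT2 and WT4 (log2 fold change 2.25, SE 0.79, adjusted p = 0.0766). Without WT1 and WT3 the log2 fold change was 0.69 (adjusted p = 0.342). Tnni3 was at 0.191, 8.18, 0.936 and 6.80 in WT1 to WT4 and 2.24, 13.5, 11.9 and 13.7 in KO1 to KO4, with KO1 again the only KO library below WT2 and WT4. The corresponding values of its log2 fold change were 1.69 and 0.19.

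Myh6 was at 0.126, 25.7, 0.423 and 25.9 in WT1 to WT4 and 3.02, 13.8, 14.5 and 15.9 in KO1 to KO4. WT2 and WT4 were the highest libraries, above every KO library, and WT1 and WT3 the lowest. Its log2 fold change was 1.24 (SE 1.21) with all libraries and -1.32 (SE 0.56, adjusted p = 0.128) without WT1 and WT3. Myh7 was at 0.673, 10.5, 0.324 and 9.66 in WT1 to WT4 and 2.19, 8.80, 13.9 and 9.79 in KO1 to KO4. KO3 was highest, and WT2, WT4 and KO4 differed little, with log2 fold changes of 1.27 and -0.44.

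**Figure D4:**
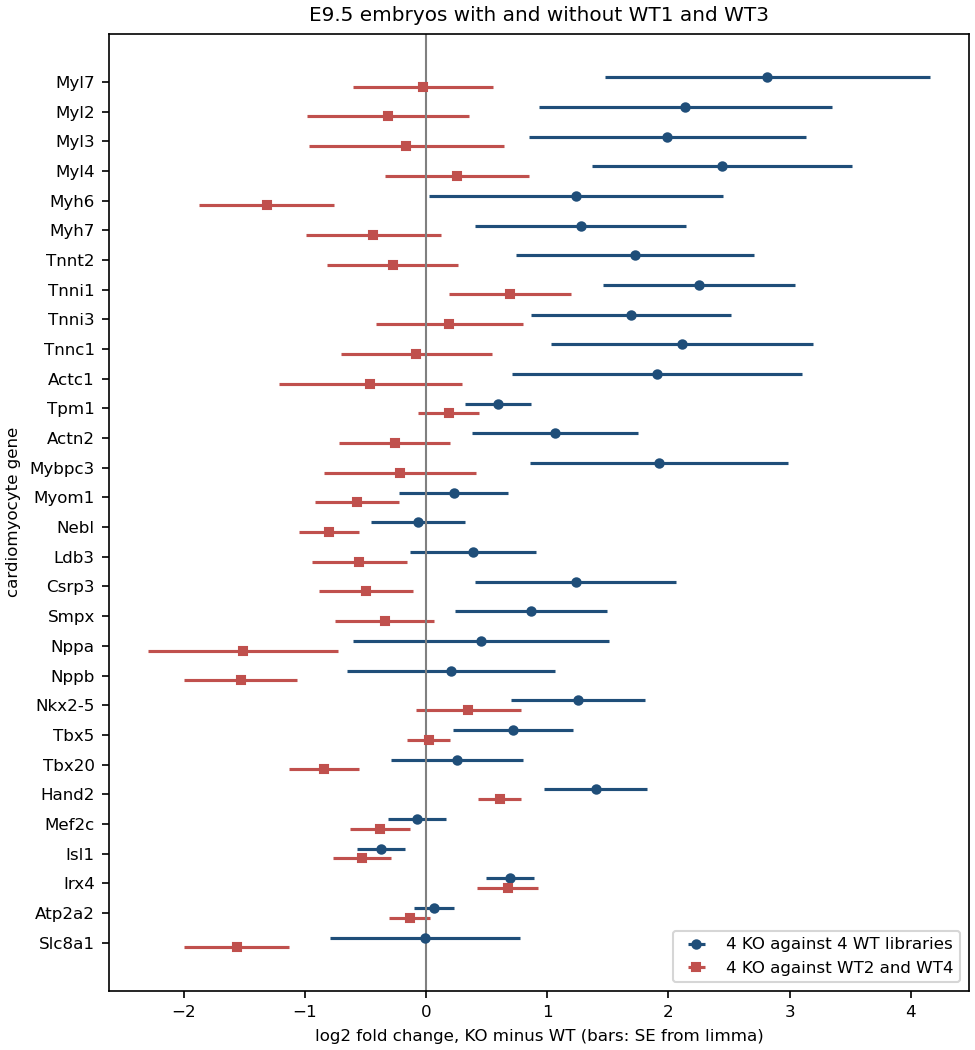
Log2 fold change of the 30 tested cardiomyocyte genes in E9.5 embryos, KO minus WT, with bars of 1 SE from limma: circles use all 8 libraries, squares leave out WT1 and WT3. Most circles lie to the right of 0 and most squares to the left, while Irx4 (0.69 and 0.67) and Hand2 (1.40 and 0.61) are above 0 in both.

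Nppa was at 0, 8.26, 0.117 and 7.65 in WT1 to WT4 and 0.343, 7.89, 1.44 and 5.13 in KO1 to KO4. KO2 was level with WT2 and WT4, KO4 lower, and KO1 and KO3 lower still. Nppb was at 0, 8.12, 0.195 and 4.53 in WT1 to WT4 and 1.06, 3.87, 0.842 and 2.41 in KO1 to KO4. All KO libraries lay below WT2 and WT4. Without WT1 and WT3 the log2 fold changes were -1.51 (SE 0.78, adjusted p = 0.193) and -1.53 (SE 0.47, adjusted p = 0.0632), and with all libraries 0.45 and 0.21.

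Of the scaffold genes, Nebl was at 0.595, 2.43, 0.430 and 2.21 in WT1 to WT4 and 0.744, 1.18, 1.19 and 1.40 in KO1 to KO4. WT2 and WT4 were above every KO library (-0.81, SE 0.25, adjusted p = 0.0639 without WT1 and WT3). All 7 tested scaffold genes had a log2 fold change below 0 in that fit, from -0.81 to -0.22 (Mybpc3, cardiac myosin-binding protein C), and 6 of 7 were above 0 with all libraries. None was called in either fit. Csrp3, a muscle LIM protein, went from 1.23 to -0.49.

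Irx4 was at 2.59, 2.17, 1.97 and 2.54 in WT1 to WT4 and 2.82, 5.66, 4.34 and 3.74 in KO1 to KO4. Every KO library was above every WT library, and WT1 and WT3 were level with WT2 and WT4 (log2 fold change 0.69, SE 0.20, adjusted p = 0.0480). Without WT1 and WT3 the log2 fold change was 0.67 (adjusted p = 0.0951). With 1 library left out the adjusted p was 0.0246 to 0.127: the call was kept without WT1 or KO1 and lost without WT2, WT3, WT4, KO2, KO3 or KO4. At E8.5 the log2 fold change had been 0.89 and was not called. At E9.5 the mean of WT1 and WT3 was 97.0% of that of WT2 and WT4 for Irx4 and 0.874% for the ventricular Myl2. Which tissue holds the Irx4 RNA was not tested.

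Hand2 was at 3.07, 14.4, 7.89 and 17.7 in WT1 to WT4 and 21.7, 28.8, 25.0 and 23.3 in KO1 to KO4. Every KO library was above every WT library here too (log2 fold change 1.40, SE 0.42, adjusted p = 0.0530). Leaving out WT1 and WT3 gave 0.61 (SE 0.18, adjusted p = 0.0575). Irx4 and Hand2 were the only tested members without overlap between the genotypes, beside 22.2% of all genes. Exons of 13 members overlap another gene. An antisense gene, Hand2os1, shares 461 exon bases with Hand2, and the counting is not stated to use strand. Antisense genes also share 532 exon bases with Nppa (Gm13054) and 523 with Myh7 (Gm31251). Tnni3 shares 86 with Dnaaf3 on the same strand. The levels and ratios of these genes carry the same limit.

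The other transcription factors overlapped between genotypes. Tbx20 was at 0.235, 3.18, 0.466 and 3.58 in WT1 to WT4 and 1.08, 2.41, 1.26 and 2.17 in KO1 to KO4. WT2 and WT4 lay above all KO libraries, with a log2 fold change of -0.84 (SE 0.29, adjusted p = 0.0787) without WT1 and WT3. Isl1, a marker of second heart field progenitors and motor neurons, was at 3.39, 5.15, 3.34 and 3.63 in WT1 to WT4 and 3.54, 2.55, 2.10 and 3.36 in KO1 to KO4. WT1 and WT3 were close to WT4, and the log2 fold changes were -0.37 and -0.53, neither called. Nkx2-5 was at 3.29, 6.91, 1.13 and 9.91 in WT1 to WT4 and 5.18, 14.1, 9.06 and 19.0 in KO1 to KO4. KO4 and KO2 were above every WT library (log2 fold change 1.25 with all libraries, 0.35 without WT1 and WT3). Tbx5 was 0.121 in WT1 and 2.50 to 3.49 in the other 7 libraries, WT3 included, and its log2 fold change went from 0.72 to 0.02 without WT1 and WT3. Mef2c ran from 0.839 to 1.89 over the 8 libraries, with -0.08 and -0.38.

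Slc8a1 was at 0.422, 11.0, 1.30 and 10.3 in WT1 to WT4 and 1.19, 3.57, 4.73 and 5.10 in KO1 to KO4. WT2 and WT4 held more than every KO library, and WT1, KO1 and WT3 were the lowest. The log2 fold change was -0.01 (SE 0.78) with all libraries and -1.56 (SE 0.43, adjusted p = 0.0532) without WT1 and WT3. Atp2a2 was at 63.1, 69.8, 48.9 and 79.0 in WT1 to WT4 and 73.7, 66.3, 72.5 and 58.0 in KO1 to KO4. The libraries differed little, with log2 fold changes of 0.07 and -0.14. Ryr2 was at 0.0215 and 0.0476 in WT1 and WT3, 0.713 and 0.642 in WT2 and WT4 and 0.163 to 0.355 in KO. Casq2, the calcium store protein, did not pass 0.288 in any library, and Pln did not pass 0.344.

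Setting KO against WT2 and WT4 alone, 8 of 30 members had all 4 KO libraries below both WT libraries: Myh6, Myom1, Nebl, Nppb, Tbx20, Mef2c, Isl1 and Slc8a1. The share among all genes tested was 26.2%, so the count is near the background. Hand2 and Irx4 had all KO libraries above both (23.9% of all genes). KO1 was the lowest KO library in 25 of 30 members, against 24.1% of all genes, and the lowest E9.5 KO library in the mean log2 level of the 19 sarcomere genes, at 2.28 against 4.04 to 4.22 in KO2, KO3 and KO4 and 3.99 and 3.89 in WT2 and WT4.

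To compare libraries at a like sarcomere level, each member was also expressed as its log2 level minus the mean of the other sarcomere genes in that library. This comparison was added after the levels had been seen and is a description. Over WT2, WT4 and the 4 KO libraries at E9.5, 4 members were lower in all KO libraries: Slc8a1 by a mean of -1.30, Nppb -1.27, Nppa -1.25 and Myh6 -1.11. This held for 0.15% of all 12027 genes, taken over the mean of all 19 sarcomere genes. Another 5 were higher in all KO libraries: Tnni1 by 1.01, Irx4 0.94, Hand2 0.87, Myl4 0.55 and Tnni3 0.48. This held for 14.5% of all genes, so the count of 5 of 30 is near the background. The other 21 overlapped. Any gene of other tissues is raised in this measure in a library with a low sarcomere mean, so both shares of all genes depend on KO1. Few such genes could lie below in every KO library, so 0.15% is not a fair background for the 4. In levels not set over the sarcomere mean, 26.2% of all genes had all KO libraries below WT2 and WT4. At E8.5, with all 8 libraries, all 30 overlapped, beside 0.0842% of all genes below and 0.245% above without overlap. KO1, which has the lowest sarcomere mean of the 6 libraries, was the highest of them for the sarcomere genes Tpm1, Myom1, Nebl, Ldb3, Csrp3 and Smpx. Among the other members it was the highest for Nkx2-5, Tbx5, Tbx20, Hand2, Mef2c, Isl1, Irx4 and Atp2a2.

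**Figure D5:**
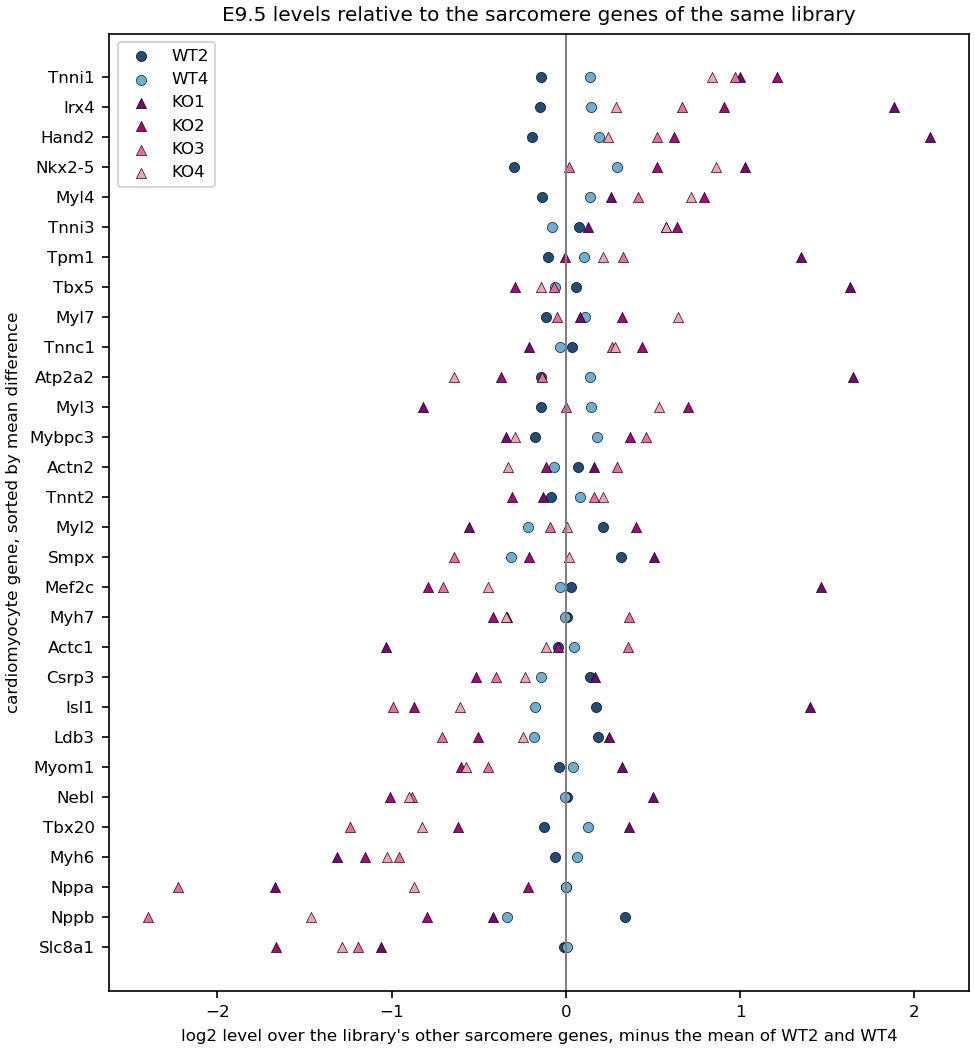
Log2 level of each tested cardiomyocyte gene over the other sarcomere genes of the same E9.5 library, minus the mean of WT2 and WT4; circles are WT2 and WT4, triangles the KO libraries. Slc8a1, Nppb, Nppa and Myh6 have all 4 triangles left of both circles, and Tnni1, Irx4, Hand2, Myl4 and Tnni3 all 4 to the right.

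Ratios between paired genes were tested with an exact two-sided permutation test over 4 KO and 4 WT libraries, whose smallest p is 0.0286, adjusted over the 6 ratios. At E8.5 the log2 ratio of Myh7 to Myh6 was -0.65, -0.83, -1.13 and -1.04 in WT and -0.26, -0.34, 0.12 and -0.71 in KO. KO4 lay among the WT libraries and the other KO libraries above them (difference 0.61, exact p = 0.0571, adjusted 0.171). At E9.5 it was 0.91, -1.25, -0.16 and -1.38 in WT and -0.39, -0.62, -0.06 and -0.67 in KO. The KO libraries were above WT2 and WT4 and below WT1, and the levels behind WT1 and WT3 were at most 0.673 FPKM (difference 0.04, exact p = 0.943). Leaving out WT1 and WT3 gave a difference of 0.88 (exact p = 0.0667, the smallest that 2 against 4 libraries can give).

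The log2 ratio of Tnni3 to Tnni1, which rises as the heart matures, was -1.63, -1.21, -0.95 and -1.62 in E9.5 WT and -2.24, -1.96, -1.79 and -1.67 in KO. Every KO library was below every WT library (difference -0.56, exact p = 0.0286, adjusted 0.171). The adjusted value did not pass 0.05. With a pseudocount of 0.1 in place of 0.5 the E9.5 difference was -0.31 (exact p = 0.429), and Tnni3 in WT1 was at only 0.191 FPKM. Without WT1 and WT3 the difference was -0.50, with an exact p of 0.133. At E8.5 it was -0.31 (exact p = 0.371) with overlap. Myl2 to Myl7, ventricular to atrial light chain, differed by -0.27 at E8.5 (exact p = 0.657) and by -0.68 at E9.5 (exact p = 0.114), with overlapping groups both times. The E9.5 difference was -0.29 without WT1 and WT3 (exact p = 0.467) and 0.025 with a pseudocount of 0.1.

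Related genes outside the members were read from lists of the same kind. Of 25 heart field, conduction and chamber genes 20 were tested at E9.5, and limma called 1 as higher, Des (desmin, the muscle intermediate filament; 1.23, adjusted p = 0.0426), with a list median of 0.82. Without WT1 and WT3 Des was at 0.66 (adjusted p = 0.142), the list median was 0.08 and Nkx2-6, a relative of Nkx2-5 in pharynx and outflow tract, was called at 1.02 (adjusted p = 0.0436). At E8.5 0 of 19 were called, 15 of them above 0, with a median of 0.34. Gata4, which works with Nkx2-5, was at 0.202, 11.1, 2.51 and 11.7 in WT1 to WT4 and 11.6, 18.0, 12.4 and 14.3 in KO1 to KO4 at E9.5, in the same pattern of low WT1 and WT3.

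Of the skeletal muscle regulators, Myod1 did not pass 0.224 and Myf6 0.161 in any E9.5 library, and Myf5 and Myog are not given here. The whole skeletal muscle list of 10 genes summed to 4.35 in WT1, the lowest library, and 37.9 in KO2, the highest. Of that list Tnni2, a fast troponin I, rose (1.34, adjusted p = 0.0440; 0.83 and 0.135 without WT1 and WT3). In smooth muscle markers 0 of 2 tested were called, and Acta2 followed the heart genes with 20.4 and 23.1 in WT1 and WT3 against 60.7 to 206. Of 8 endocardial and endothelial markers Emcn, a vascular sialomucin, fell by 0.73 (adjusted p = 0.0351), which was -0.69 (adjusted p = 0.0752) without WT1 and WT3, where Tek, an endothelial receptor, was called at -0.74 (adjusted p = 0.0446). Tcf21, of the epicardium and other mesenchyme, rose by 1.27 (adjusted p = 0.0318; 0.65 and 0.0482 without them). Nkx2-1, of lung, thyroid and forebrain, fell by 1.76 (limma adjusted p = 0.0378; -1.06 and 0.0838 without them). At E8.5 limma called 0 genes of these lists.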

How the data were processed

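RNA-seq libraries were made from total RNA with a NEBNext Ultra kit, per the labels' protocols. The authors deposited FPKM values per Ensembl gene ID for 8 libraries in each of 3 tables. DESeq2 and the builds GRCm38 and mm10 are named per the submitters' processing notes, while no aligner, counter or use of strand is given in the sources used here. Symbols came from GENCODE M21, which held 54495 of 54532 IDs.

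FPKM were scaled by median-of-ratios factors, and genes reaching an FPKM of 1 in 4 or more of 8 libraries were fitted as log2(FPKM + 0.5) with limma 3.58.1 (R 4.3.3, empirical Bayes with trend), within each table, with Benjamini-Hochberg adjustment over all genes and a threshold of 0.05. A fold change on this scale understates the change of low genes. Whole reads were recovered from FPKM and gene length: 97.0 to 98.4% of low values were whole within a tolerance of 0.02, which gave 15555422 to 23379198 fragments per library. The E8.5 and E9.5 tables use different gene lengths, so levels were not compared between them. Ratios were tested by going through every permutation in Python 3.11.15 with numpy 2.4.6. The fits were checked on simulated data.

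Values in every library are given for Myl7, the highest 1 or 2 genes of each role, called genes and ratio genes; other members given this way, such as Nebl, Mef2c, Tbx20, Isl1 and Slc8a1, were chosen after their values were seen. The members and lists were chosen with earlier results of these data known. Separate animals are not stated for the replicates beyond their litters, and p-values cover only the spread among these libraries, which may be technical. A called gene outside the members is not reported here.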

Additional observations from a re-analysis of the deposited data

Results flagged for a closer look

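Of 121 groups of 4 libraries, 5 held 1 library far from the other 3, and chance gives about 1 in 20. Tnni1 was at 28.7 scaled FPKM in E8.5 KO3 and at 81.2 to 84.9 in the other KO libraries. In E9.5 KO1, Myh6 was at 3.02 against 13.8 to 15.9 in the other KO libraries, Tnni3 at 2.24 against 11.9 to 13.7, and Myom1 at 0.380 against 1.25 to 1.38. Isl1 was at 5.15 in E9.5 WT2 and at 3.34 to 3.63 in the other WT libraries.

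In the yolk sac, which entered no test here, the KO mean lay above every WT library for Myl3 (2.05 against 0.269 to 0.521) and for Tnnc1 (8.60 against 3.12 to 5.68).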

How the results depend on the processing

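At E8.5 the count of called members was 0 under every alternative run except the replicate block, which called 2, Irx4 and Nebl (all genes 1261). Leaving out 1 library moved the median of the members between -0.30 and 0.30, and it was above 0 without WT1 (0.11) and without KO3 (0.30). At E9.5 the count was 2 with FPKM as deposited (all genes 1719) and with a pseudocount of 1 (all genes 1659), and 3 with voom (all genes 2095). It was 0 with no filter, with the replicate block (all genes 146) and without WT1 and WT3, with or without KO2. With 1 library left out it was 0 to 2. Rescaling to TPM called Isl1 alone, at -0.75 (limma adjusted p = 0.0159). The median was -0.30 without WT1 and WT3 and -0.47 also without KO2, and 0.60 to 1.55 with 1 library left out. A member was counted as turned where its sign changed and both values passed their SE: Myh6 (-1.32, and -1.47 also without KO2), Csrp3 (-0.49 and -0.57) and Smpx (-0.46 also without KO2). With 1 library left out these were 0.30 to 2.09, 0.60 to 1.87 and 0.43 to 1.39.

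Of the log2 ratios at E8.5, Myh7 to Myh6 ran from 0.47 to 0.75 with 1 library left out (exact permutation p = 0.0286 without KO4) and Myl2 to Myl7 from -0.60 to 0.10. At E9.5 Myh7 to Myh6 was -0.15 with a pseudocount of 0.1, -0.27 to 0.50 with 1 library left out and 0.88 without WT1 and WT3 (exact p = 0.0667). Tnni3 to Tnni1 was -0.31 with a pseudocount of 0.1 (exact p = 0.429), -0.56 with the replicate block (exact p = 0.125, the smallest 4 pairs can give), -0.50 without WT1 and WT3 (exact p = 0.133) and -0.66 to -0.43 with 1 library left out. Myl2 to Myl7 was 0.025 with a pseudocount of 0.1 and -0.91 to -0.53 with 1 library left out (exact p = 0.0286 without WT4). The cause of these changes was not tested.

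Same-numbered KO and WT libraries correlated by 0.0651 to 0.382 at E8.5 and by -0.207 to 0.154 at E9.5, and at E8.5 the correlations of numbers 1 to 3 were 0.31 to 0.382. Since not every pair passed 0.1 and no label ties the numbers to a litter, the numbers were not taken as a pairing. WT1 to WT3 and KO2 at E8.5 correlated best with their own number, a hint from the data and not from the design. All genes called ranged from 24 to 1261 at E8.5 (125 in the report) and from 35 to 3245 at E9.5 (1637 in the report). Low levels rest on few fragments, down to 0 for Myl2, Smpx, Nppa and Nppb at E9.5.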
